A study of Mus musculus with 20 samples.

Results

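Macrophages of the thoracic aortic wall were followed through 10 marker genes, some shared by all macrophages and some typical of the resident cells of the outer wall. They are Adgre1, Csf1r, Cd68, C1qa, Mrc1, Cd163, F13a1, Folr2, Timd4 and Lyve1. They were chosen by symbol as known markers, by no rule on their values but with earlier results of these data known. They make up 10 of the 54532 genes in the count table. All 10 matched 1 Ensembl gene ID each, and all 10 were among the 15543 genes that passed the filter on low counts.

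Resident macrophages sit mainly in the adventitia, the outer coat of the artery, where they clear debris, take up matrix and iron-bearing proteins through scavenger receptors and depend on signals through the CSF1 receptor. In mice, LYVE1, TIMD4 and FOLR2 mark the long-lived resident cells of many organs, as opposed to cells newly derived from blood monocytes. LYVE1 binds hyaluronan and is also a marker of lymphatic endothelium, so that in whole tissue its transcript can come from either cell.

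The libraries hold RNA of the descending or the ascending thoracic aorta of C57BL/6J mice given β-aminopropionitrile (BAPN) or water for 1 week. BAPN is an inhibitor of lysyl oxidases, which form the cross-links of elastin and collagen fibres. There were 5 libraries in each of 4 groups: descending BAPN, descending water, ascending BAPN and ascending water. No transgene or mutation is labelled in any group, and the comparisons ask what BAPN did in each region and how the regions differed. Neither age, sex nor the mouse behind each library is given in the labels used here, so p-values measure only the spread between these libraries, which may be technical.

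Each library held between 15.7 M and 23.3 M counts, of which the 10 genes together took 0.0279% to 0.0416%. The levels of 33 pseudogenes split the libraries into a higher set and a lower set of 10 each, a division that the labels do not give. All 5 ascending BAPN libraries, ascending water 4 and 5 and descending water 1, 2 and 5 lay in the higher set, and the other 10 in the lower set. The sets are treated as batches, and values with the sets as a term, or within 1 set, are given where they end a call or turn a direction of a member. Markers of T cells, B cells and neutrophils were low, with summed levels of at most 13.5, 4.86 and 5.01 CPM (counts per M counts of the scaled library) in any library.

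All 10 transcripts were present in every library. Levels between genes were compared per kilobase of exon, as the mean over 20 libraries with its SD. C1qa, a chain of the complement trigger C1q made largely by macrophages, stood far above the rest at 66.3 ± 8.43 CPM per kb. Its lowest library (48.2) lay above the highest library of any other member (15.6). Lyve1 (12.0 ± 2.05), F13a1 (11.7 ± 1.66), which encodes the A chain of the cross-linking enzyme factor XIII, and Csf1r (10.8 ± 1.09), the receptor of CSF1 and IL-34, followed within one another's spread. Mrc1 (7.81 ± 0.87), the mannose receptor, and Cd68 (6.55 ± 0.77), a lysosomal protein of phagocytes, came next. Cd163 (5.40 ± 1.251), the scavenger receptor for haemoglobin bound to haptoglobin, and Adgre1 (5.07 ± 0.70), the gene of the F4/80 antigen, lay within one another's spread over the 20 libraries. The order of these genes changed between libraries. Cd163 lay above Adgre1 in descending BAPN 2 (7.49 and 5.45) and below it in ascending water 4 (4.21 and 6.02). Folr2 (2.56 ± 0.47), a folate receptor, and Timd4 (1.43 ± 0.29), a receptor for phosphatidylserine on dying cells, were the lowest. They rested on 52 to 97 and 29 to 83 counts per library, whereas Csf1r had 895 to 1492. Of the exon bases of Folr2, 63.1% overlap an antisense gene. How reads there were counted is not given, so the level of Folr2 per kb and its place in this order are uncertain.

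The summed level of the 10 genes was 381 ± 39.0 CPM in descending BAPN, 367 ± 26.7 CPM in descending water, 348 ± 28.7 CPM in ascending BAPN and 331 ± 43.0 CPM in ascending water (SD, n = 5 each). The ranges of these sums overlapped between all 4 groups. In RNA of whole tissue, fewer cells of a type and less RNA per cell cannot be told apart, and this applies to every difference below.

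**Figure D1:**
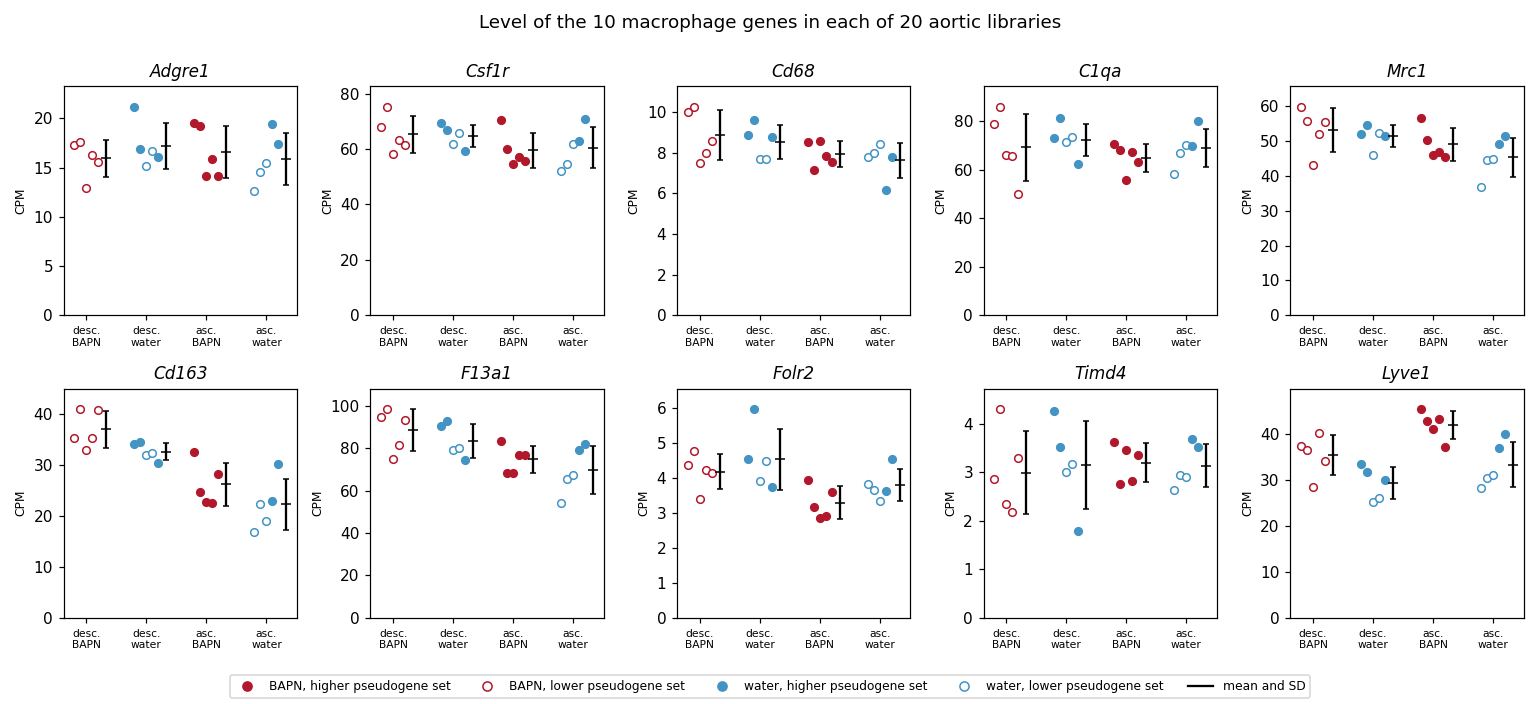
Level of each of the 10 genes in CPM (vertical axes, from 0) in the 20 libraries, by group; each point is 1 library, filled where it lay in the higher pseudogene set and open in the lower set, and bars give the mean and SD of 5 libraries. Cd163 shows descending libraries above all ascending libraries of the same treatment, Lyve1 shows ascending BAPN libraries at 37.3 to 45.5 CPM, and the 4 groups of Csf1r, Adgre1, Timd4 and C1qa lie over one another.

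Sequence just before the transcription start is shown for 3 of the members that were higher in the descending aorta when both treatments were averaged. These are the scavenger receptor genes Cd163 and Mrc1 and the factor XIII gene F13a1. The 250 bases before the start come from RefSeq on GRCm38.p6, at chr6:124304401-124304650 (plus strand) for Cd163, chr13:37050245-37050494 (minus strand) for F13a1 and chr2:14229164-14229413 (plus strand) for Mrc1. They are printed 5′ to 3′ along the gene's strand. Capitals mark GAGGAA or its reverse complement TTCCTC, the core bound by ETS factors such as the myeloid factor PU.1.
Cd163: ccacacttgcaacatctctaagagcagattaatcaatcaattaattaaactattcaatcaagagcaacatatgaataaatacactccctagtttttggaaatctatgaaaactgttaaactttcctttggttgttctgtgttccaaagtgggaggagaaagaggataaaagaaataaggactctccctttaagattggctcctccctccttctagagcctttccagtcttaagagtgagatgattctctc
F13a1: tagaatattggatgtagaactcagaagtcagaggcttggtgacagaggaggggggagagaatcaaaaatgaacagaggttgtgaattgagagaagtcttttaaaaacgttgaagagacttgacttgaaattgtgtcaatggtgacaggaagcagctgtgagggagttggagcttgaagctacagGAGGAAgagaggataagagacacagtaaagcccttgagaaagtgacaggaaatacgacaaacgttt
Mrc1: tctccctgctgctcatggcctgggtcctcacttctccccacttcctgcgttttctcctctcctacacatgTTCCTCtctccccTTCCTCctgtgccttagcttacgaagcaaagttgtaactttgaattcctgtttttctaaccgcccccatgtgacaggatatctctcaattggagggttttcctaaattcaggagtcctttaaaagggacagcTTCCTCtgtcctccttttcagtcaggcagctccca
The Mrc1 stretch held 3 matches, the F13a1 stretch 1 and the Cd163 stretch 0. Among all 32851 mouse promoters of the same length, 23.3% held at least 1 match on either strand. Of the 10 members, 6 had promoters in the table, 8 promoters in all, and 3 of the 8 held the core, those shown for Mrc1 and F13a1 and that of Cd68. A second promoter of F13a1 held 0 matches. A match is a description of the letters, not of binding.

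With BAPN, Lyve1 rose in the ascending aorta and in the average of the regions. Its value in the descending aorta was positive without passing the test, and the other 9 genes did not pass in either region. Lyve1 lies on chromosome 7 (GRCm38, 110850607 to 110863239, minus strand). In the ascending aorta Lyve1 had 45.5, 42.9, 41.2, 43.4 and 37.3 CPM in BAPN libraries 1 to 5, against 28.4, 30.5, 31.1, 36.9 and 40.0 CPM in water libraries 1 to 5. Only BAPN library 5 fell below the highest water library, so the groups overlapped by that 1 library. In the descending aorta Lyve1 had 37.6, 36.5, 28.6, 40.4 and 34.3 CPM in BAPN libraries, against 33.5, 31.7, 25.4, 26.1 and 30.0 CPM in water libraries. There BAPN library 3 was low, below 3 of the water libraries, and the other 4 BAPN libraries lay above every water library.

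In the ascending aorta the log2 difference of Lyve1, BAPN over water, was 0.33 (SE 0.10, 1.26-fold, adjusted p = 0.0331 by edgeR's quasi-likelihood test with Benjamini-Hochberg adjustment over all genes tested). It was 1 of 10 members called, at adjusted p under 0.05, against 6.34% of all genes tested (3.44% higher and 2.91% lower). For none of the 10 did the ascending groups lie apart with no overlap, as 7.51% of all genes did. In the descending aorta the log2 difference of Lyve1 was 0.27 (SE 0.10, 1.21-fold, edgeR adjusted p = 0.0721), and none of the 10 members was called, against 10.7% of all genes (6.18% higher and 4.54% lower). For none of them did the descending groups lie apart, as 7.38% of all genes did. At an unadjusted p under 0.05 there was 1 member, beside 3630 of all 15543 genes, and DESeq2 and limma-voom called 0. The median log2 difference of the 10 members was 0.06 in the ascending and 0.03 in the descending aorta, beside medians of -0.01 and 0.00 over all genes tested.

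Some markers of muscle cells moved with BAPN in the same libraries. The summed level of 6 cardiomyocyte markers was 580 to 998 CPM in ascending BAPN and 330 to 795 CPM in ascending water. Of these 6, Tnnt2, Actn2 and Myl3 were called higher by edgeR, beside 3.44% of all genes. In the descending aorta 0 of the 6 were called, beside 10.7% of all genes, and 0 had an unadjusted p under 0.05. Summed over 5 smooth muscle markers, the level was 21060 to 23330 CPM in ascending BAPN and 18020 to 19730 CPM in ascending water. In the descending aorta it was 21620 to 24080 CPM in BAPN and 17930 to 20450 CPM in water. Acta2 was the 1 marker called, higher in both regions, beside 3.44% and 6.18% of all genes. Of the 5 markers, 3 were positive and 2 negative in each region, with median log2 differences of 0.04 and 0.10. The part of muscle cells in the values of Lyve1 was not tested.

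The pseudogene sets moved the 2 regional values of Lyve1 in opposite directions. With the sets as a term in the model, the log2 difference was 0.14 in the ascending aorta (edgeR adjusted p = 0.41) and 0.48 in the descending aorta (adjusted p = 8e-04). Within the higher set alone, all 5 ascending BAPN libraries against water libraries 4 and 5, it was 0.13 (adjusted p = 0.45). Within the lower set alone, all 5 descending BAPN libraries against water libraries 3 and 4, it was 0.46 (adjusted p = 0.045). Lyve1 itself was higher in the higher set than in the lower set, by 0.33 on the log2 scale in that model (SE 0.07, adjusted p = 0.0439), where 0.315% of all genes were called. It was the only member called for the sets, although all 10 had positive values.

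Averaged over the regions, a comparison added after the values were seen, Lyve1 was 1.23-fold higher with BAPN (log2 0.30, SE 0.07, edgeR adjusted p = 0.00216), and it was the 1 member of 10 called, where 17.5% of all genes were (9.47% higher and 8.02% lower). This value passed in all 28 alternative fits, of which 20 left out 1 library each, with log2 differences of 0.28 to 0.34 and adjusted p-values of 4.1e-05 to 0.0058. With the sets as a term it was 0.31. The higher set held as many BAPN as water libraries, so that term could hardly move this average and is no check of it. The ascending call alone was lost without any 1 of 7 libraries (water 1, 2 or 3, or BAPN 1, 2, 3 or 4), with log2 differences of 0.28 to 0.34 and adjusted p-values of 0.054 to 0.094. The descending value was called without water library 1 or without BAPN library 3, at adjusted p-values of 0.023 to 0.046.

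Lyve1 was also set relative to Csf1r in each library, as a description with no test. The ratio of their CPM was 0.646 to 0.757 in ascending BAPN and 0.503 to 0.587 in ascending water, with no overlap. In the higher pseudogene set, ascending water 4 and 5 had ratios of 0.587 and 0.565. Csf1r itself had 62.9 and 70.8 CPM in these 2 libraries, against 70.3, 60.1, 54.5, 57.3 and 55.7 CPM in ascending BAPN 1 to 5. A ratio moves with both of its genes, and the share of other gene ratios without overlap was not computed. The ratio was 0.485 to 0.637 in descending BAPN and 0.397 to 0.505 in descending water, with overlap. In the lower set, descending water 3 and 4 had ratios of 0.410 and 0.397, below all 5 BAPN libraries.

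The other 9 members gave log2 differences for BAPN over water from -0.20 (Folr2) to 0.24 (Cd163) in the ascending aorta and from -0.12 (Folr2) to 0.18 (Cd163) in the descending aorta. Cd163 averaged 26.2 ± 4.25 CPM in ascending BAPN and 22.3 ± 5.08 CPM in ascending water, and 37.0 ± 3.61 CPM in descending BAPN and 32.6 ± 1.66 CPM in descending water (SD, n = 5 each). Its adjusted p-values by edgeR were 0.263 and 0.357, but without ascending water library 5, the highest of its group at 30.15 CPM, its ascending difference was 0.37 (adjusted p = 0.034). Csf1r gave -0.02 in the ascending aorta (95% interval -0.19 to 0.15) and 0.01 in the descending aorta (95% interval -0.16 to 0.18). C1qa gave -0.09 and -0.06, and its partner chains were as level: C1qb averaged 60.0 ± 4.02 CPM in ascending BAPN and 61.7 ± 10.6 CPM in ascending water, and C1qc 52.5 ± 5.90 and 53.5 ± 9.23 CPM. The widest intervals were those of Timd4, -0.38 to 0.45 in the ascending and -0.50 to 0.34 in the descending aorta, so moderate changes of this low gene were not detectable at this depth.

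**Figure D2:**
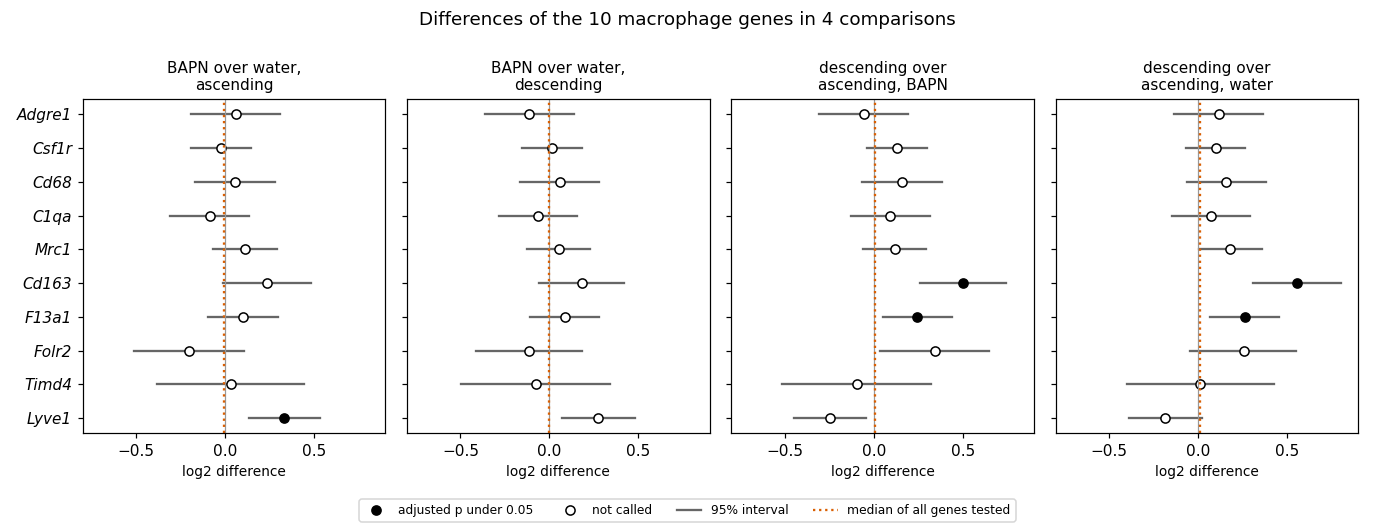
Log2 difference of each of the 10 genes (rows) in 4 comparisons (panels) from edgeR, with 95% intervals; black points have an adjusted p under 0.05 and the dotted line is the median of all genes tested. Lyve1 is called in the ascending BAPN comparison at 0.33, and Cd163 and F13a1 are called in both comparisons of descending with ascending aorta, at 0.50 and 0.24 under BAPN and at 0.55 and 0.26 under water.

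For none of the members was the effect of BAPN called different between the regions. The differences of effects, descending minus ascending, ran from -0.17 (Adgre1) to 0.09 (Folr2), and that of Lyve1 was -0.06 (95% interval -0.35 to 0.23, edgeR adjusted p = 0.974), which turned to 0.33 with the pseudogene sets as a term (SE 0.133, adjusted p = 0.85). None of the 10 reached an unadjusted p under 0.05, and DESeq2 and limma-voom called none of them. Over all genes, 0 of 15543 (0%) were called by edgeR and 1070 had an unadjusted p under 0.05, while DESeq2 called 14 and limma-voom 0.

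Cd163 was the member that differed most between the regions, with more in the descending aorta under both treatments. The gene lies on chromosome 6 (GRCm38, 124304656 to 124330527, plus strand). Under BAPN it had 35.2, 40.9, 32.9, 35.3 and 40.7 CPM in descending libraries 1 to 5, against 32.6, 24.7, 22.7, 22.6 and 28.2 CPM in ascending libraries 1 to 5. Every descending library lay above every ascending one, though the gap between the nearest pair was under 1 CPM. Under water it had 34.1, 34.4, 31.9, 32.3 and 30.4 CPM in descending libraries, against 16.8, 22.3, 18.9, 23.0 and 30.15 CPM in ascending libraries. Again no libraries overlapped, and ascending water library 5 came within 1 CPM of the lowest descending library.

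The log2 difference of Cd163, descending over ascending, was 0.50 under BAPN (SE 0.12, 1.42-fold, edgeR adjusted p = 0.00131) and 0.55 under water (SE 0.12, 1.47-fold, adjusted p = 0.000531). Descending BAPN and ascending BAPN lay wholly in different pseudogene sets, so for that pair the set and the region cannot be told apart within the data of those groups. With the sets as a term the values were 0.75 (adjusted p = 0.00068) and 0.52 (adjusted p = 0.00053). Under water, Cd163 gave 0.30 in the higher set (adjusted p = 0.11) and 0.73 in the lower set (adjusted p = 0.00074). Relative to Csf1r, Cd163 had ratios of 0.517 to 0.663 in descending BAPN and 0.395 to 0.506 in ascending BAPN, and of 0.490 to 0.516 in descending water and 0.306 to 0.426 in ascending water.

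F13a1 showed a smaller difference of the same direction. It lies on chromosome 13 (GRCm38, 36867178 to 37050244, minus strand). Under BAPN it had 94.7, 98.3, 74.8, 81.5 and 93.3 CPM in descending libraries, against 83.2, 68.4, 68.45, 76.8 and 76.7 CPM in ascending libraries. Under water it had 90.4, 92.9, 79.3, 80.0 and 74.5 CPM in descending libraries, against 54.2, 65.6, 67.4, 79.1 and 82.0 CPM in ascending libraries. The groups overlapped in both cases. Under BAPN descending libraries 3 and 4 lay below the highest ascending library, and under water ascending libraries 4 and 5, those of the higher pseudogene set, lay among the descending ones.

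The log2 difference of F13a1 was 0.24 under BAPN (SE 0.09, edgeR adjusted p = 0.0468) and 0.26 under water (SE 0.09, adjusted p = 0.0361). Both lay near the threshold. The first was lost with both other scalings, the stricter filter and limma-voom, in 4 of 10 alternative fits of all libraries (adjusted p-values 0.052 to 0.078). It was also lost without any 1 of 11 libraries, with adjusted p-values of 0.051 to 0.12, and the second without any 1 of 5 (ascending water 1, 2 or 3, or descending water 1 or 2), with adjusted p-values of 0.073 to 0.12. With the pseudogene sets as a term the values were 0.48 under BAPN (adjusted p = 0.0032) and 0.22 under water (adjusted p = 0.044). Within sets F13a1 gave 0.09 in the higher (adjusted p = 0.61) and 0.35 in the lower (adjusted p = 0.016) under water.

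Together 2 of 10 members were called in each regional comparison, against 29.8% of all genes under BAPN (14.2% higher and 15.6% lower) and 27.3% under water (12.1% higher and 15.2% lower), so the share of members called was not above the background. In each comparison 1 member, Cd163, had groups that did not overlap, against 21.4% of all genes under BAPN and 20.1% under water. The medians of the 10 log2 differences were 0.12 under BAPN and 0.14 under water, beside 0.01 over all genes in both. Under BAPN 7 of the 10 values were positive, beside 51.8% of all genes, and under water 9 of the 10, beside 52% of all genes.

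Averaged over the treatments, again a comparison added after the values were seen, 5 of 10 members were called by edgeR, against 40.2% of all genes (20% higher and 20.1% lower). Cd163 was 1.44-fold higher (log2 0.53, SE 0.08, adjusted p = 7.43e-06) and F13a1 1.19-fold higher in the descending aorta (log2 0.25, SE 0.07, adjusted p = 0.00275). Both passed in all 29 alternative fits. Folr2 was higher by 0.30 (SE 0.10, adjusted p = 0.0205), a call that was lost without descending water library 2, the highest at 5.97 CPM, which left 0.24 (adjusted p = 0.05). Folr2 shares 63.1% of its exon bases with the antisense gene Gm10602, and the library kit does not mark strand, so reads of the 2 genes cannot be told apart. Mrc1 was higher by 0.15 (SE 0.06, adjusted p = 0.0485), and kept its call in 11 of 29 alternative fits.

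Lyve1 was the 1 member called lower in the descending aorta in that average. It fell by 0.22 on the log2 scale in descending aorta (SE 0.07, edgeR adjusted p = 0.0123), a call lost with the pseudogene sets as a term, where the value was -0.08 (adjusted p = 0.31). Under BAPN alone Lyve1 gave -0.25 (SE 0.10, adjusted p = 0.0523), just short of the threshold. It was called in 9 of 10 alternative fits of all libraries, at adjusted p-values of 0.023 to 0.049. Among them was the fit with the replicate numbers as a block within treatment (-0.25, adjusted p = 0.028), though the labels do not state that the numbers pair libraries. The exception was the fit with the sets as a term, where the value turned to 0.09 (adjusted p = 0.66). Under water alone it gave -0.19 (SE 0.10, adjusted p = 0.167), with -0.25 with the sets as a term (adjusted p = 0.011), -0.28 within the higher set (adjusted p = 0.04) and -0.22 within the lower set (adjusted p = 0.11).

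Adgre1, Csf1r, Cd68, Timd4 and C1qa were not called between the regions in either treatment. Their log2 differences, descending over ascending, ran from -0.10 (Timd4) to 0.16 (Cd68) under BAPN and from 0.01 (Timd4) to 0.16 (Cd68) under water. Csf1r averaged 65.3 ± 6.62 CPM in descending BAPN and 59.6 ± 6.37 CPM in ascending BAPN, and 64.7 ± 4.0 CPM in descending water and 60.5 ± 7.38 CPM in ascending water (SD, n = 5 each). Of its exon bases 15.1% overlap Hmgxb3 on the other strand.

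Because lymphatic endothelium also makes Lyve1, 6 other lymphatic markers were set beside it. Prox1 encodes the master transcription factor of lymphatic endothelium, Flt4 the receptor of VEGF-C, and Mmrn1, Reln and Pdpn proteins of its surface or matrix, while the chemokine gene Ccl21a had 0 counts in all 20 libraries, which allows at most 0.186 CPM in the shallowest. The summed level of the 6 was 19.0 to 25.9 CPM in descending BAPN, 23.9 to 31.5 CPM in descending water, 102.5 to 122.1 CPM in ascending BAPN and 86.7 to 116.2 CPM in ascending water. All 5 tested markers were called lower in the descending aorta under BAPN and under water, beside 15.6% and 15.2% of all genes. Their median log2 differences were -2.40 under BAPN and -2.06 under water. Prox1 averaged 0.70 ± 0.43 CPM in descending water and 14.6 ± 3.50 CPM in ascending water (log2 -4.36, SE 0.24, edgeR adjusted p = 1.42e-13). Cardiomyocyte markers were also lower there, summing to 8.16 to 10.4 CPM in descending water and 330 to 795 CPM in ascending water. The part of other cells in the values of Prox1 was not tested. Lyve1 averaged 29.4 ± 3.52 CPM in descending water and 33.4 ± 4.87 CPM in ascending water (log2 -0.19).

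Under BAPN the median log2 difference of the 5 tested markers in the descending aorta was -0.56, and the value of Lyve1, not called, was 0.27. Of the 5 markers 1 was called lower, beside 4.54% of all genes. It was Reln, at -0.78 (SE 0.24, edgeR adjusted p = 0.0398). Reln gave -0.53 with the pseudogene sets as a term (adjusted p = 0.27) and -0.23 within the lower set (adjusted p = 0.84), and its call was also lost with limma-voom and with the compared groups alone (adjusted p = 0.1 in each). It was lost without any 1 of 6 libraries (descending BAPN 1, 2 or 3, or descending water 1, 2 or 5), with adjusted p-values of 0.058 to 0.14. In the ascending aorta their median was 0.17, with 0 of 5 called by edgeR and 0 at an unadjusted p under 0.05, and the ascending value of Lyve1 was 0.33. Lyve1 was not tested against these markers, and the part of lymphatic endothelium in its values was not tested in either region.

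**Figure D3:**
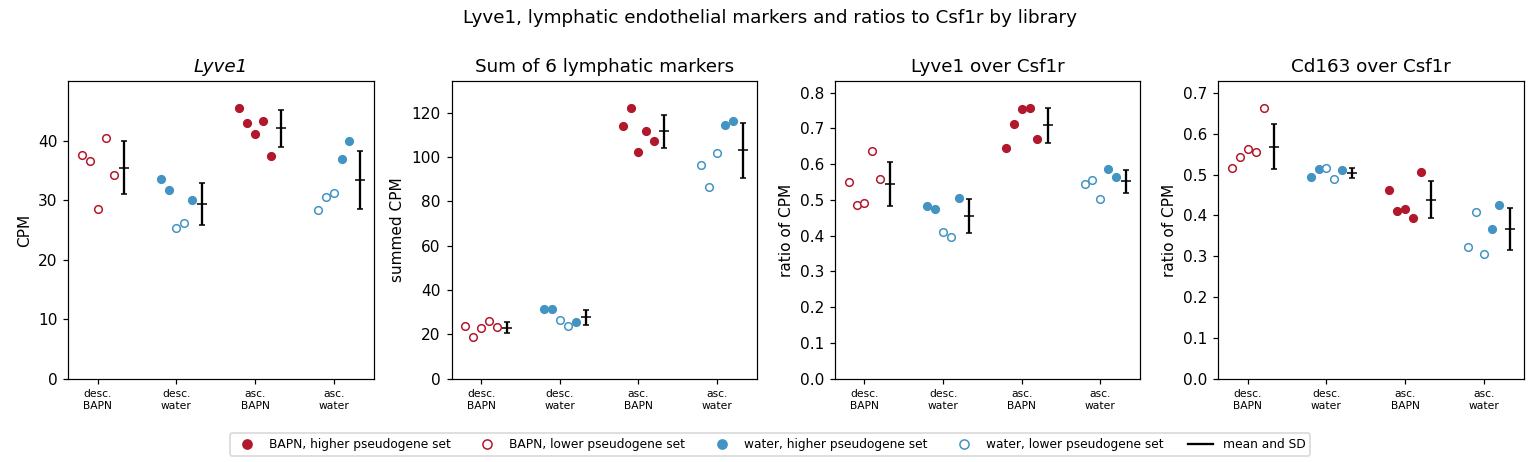
Lyve1 in CPM, the summed CPM of 6 lymphatic endothelial markers, and the CPM ratios of Lyve1 and Cd163 to Csf1r in the 20 libraries by group; each point is 1 library, filled in the higher and open in the lower pseudogene set, with mean and SD bars. Lymphatic markers sum to 19.0 to 31.5 CPM in descending libraries and 86.7 to 122.1 CPM in ascending libraries, whereas Lyve1 spans 25.4 to 40.4 CPM in descending and 28.4 to 45.5 CPM in ascending libraries.

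Within groups 9 of the 10 genes followed a shared course from library to library, and Cd68 followed it least. Each gene's log2 CPM was centred on its group mean and scaled to an SD of 1 over the 20 libraries, and the mean of the 10 was taken as a shared profile. Ascending water 5 (1.75), ascending BAPN 1 (1.56) and descending BAPN 2 (1.52) stood highest on it, and descending BAPN 3 (-1.80) and ascending water 1 (-1.69) lowest. Each gene was then set against the profile of the 9 others, so that it was no part of what it was compared with. Csf1r lay nearest, with a root mean square difference of 0.417 over 20 libraries, then F13a1 (0.488) and Mrc1 (0.565). Timd4 (0.885) and C1qa (0.874) lay farther, and Cd68 farthest at 1.18, against a median of 1.43 over genes outside the list. The differences of Cd68 from single members ran from 1.09 (Folr2) to 1.37 (Adgre1). The closest pair of members was Adgre1 and Mrc1, at 0.599. The points share libraries and depth, so the profile is a description. It was not adjusted for the pseudogene sets, for which all 10 members had positive values, from 0.01 (Cd68) to 0.33 (Lyve1). The part of the sets in the profile was not tested.

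Outside the list, among 13782 genes searched, the gene nearest to the profile of all 10 was Fcgr3, an Fc receptor of myeloid cells, at 0.367. C3, the central complement component, followed at 0.563, then the prostaglandin dehydrogenase gene Hpgd (0.568), Cmtm3 (0.575), Coro1a (0.583), Fcer1g (0.584), Unc93b1 (0.588) and Lcp1 (0.597). Coro1a and Lcp1 encode actin-binding proteins of blood cells, Fcer1g the signalling chain of Fc receptors, and Unc93b1 the escort of endosomal Toll-like receptors. This likeness is within groups only. Between the regions edgeR called C3 (log2 -1.265 under BAPN and -1.403 under water), Hpgd (-1.52 and -1.61), Coro1a and Lcp1 lower in the descending aorta under both treatments, beside 15.6% and 15.2% of all genes. Fcgr3, Cmtm3, Fcer1g and Unc93b1 were not called under either. Fcgr3 was also the gene nearest to Cd163 (0.558) and to F13a1 (0.420). Csf1r was nearest to Laptm5 (0.465), a lysosomal protein of blood cells, C1qa to C1qc (0.475), Adgre1 to Fcrls (0.525), Folr2 to Fgd2 (0.635) and Lyve1 to the chemokine gene Ccl9 (0.555). Mrc1, Cd68 and Timd4 were nearest to Mcm8 (0.506), Inip (0.575) and Thumpd1 (0.624).

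**Figure D4:**
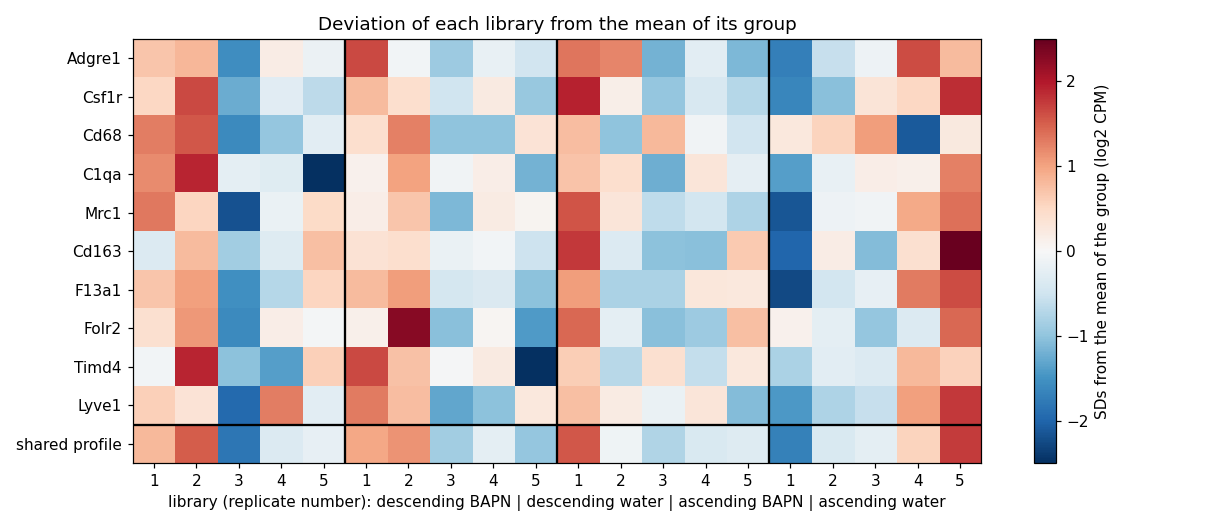
Deviation of each library from its group mean for the 10 genes and their shared profile (rows), in SDs of group-centred log2 CPM, with libraries 1 to 5 of each group as columns. Most rows are red in descending BAPN 2, ascending BAPN 1 and ascending water 5 and blue in descending BAPN 3 and ascending water 1, with Cd68 departing most often from the others.

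A further list holds 18 other genes used as markers of resident-type macrophages. Its summed level averaged 1449 to 1626 CPM in the 4 groups, against 331 to 381 CPM for the 10 members. Which cells made these transcripts was not tested. Of the 17 genes of the list that were tested, 0 rose and 3 fell under BAPN in the ascending aorta, beside 3.44% and 2.91% of all genes. In the descending aorta 1 rose and 2 fell, beside 6.18% and 4.54%. Positive values were found for 6 and 9 of the 17, and the median log2 differences were -0.09 and 0.01. The 3 that fell in the ascending aorta were Gas6, a bridge between dying cells and their phagocytes (log2 -0.17), Cbr2 (-0.19) and the lectin gene Cd209g (-0.92). With the pseudogene sets as a term the calls of Gas6 (-0.14, adjusted p = 0.053) and Cbr2 (-0.15, adjusted p = 0.097) were lost. In the descending aorta Gas6 (-0.19) and Cbr2 (-0.19) fell, and the galactose-binding lectin gene Clec10a rose, to 10.2 ± 0.87 CPM in BAPN, against 6.86 ± 1.01 CPM in water (log2 0.57, SE 0.17, edgeR adjusted p = 0.0267). The call of Cd209g was lost with no filter on low counts (adjusted p = 0.054) and without ascending BAPN 2 or 3 or ascending water 4 or 5 (adjusted p-values 0.056 to 0.086), and that of Clec10a within the lower set (0.50, adjusted p = 0.059) and without descending BAPN 1 or 4 or descending water 1 or 5 (adjusted p-values 0.055 to 0.068). Between the regions, 4 of the 17 were higher and 2 lower in descending water than in ascending water, beside 12.1% and 15.2% of all genes, and 4 were higher and 1 lower in descending BAPN than in ascending BAPN, beside 14.2% and 15.6%. Among those higher under water were Maf, a transcription factor of resident macrophages (0.45), Cbr2 (0.26) and the chemokine gene Ccl8 (1.52, at 2.80 ± 0.76 CPM in descending water and 0.97 ± 0.24 CPM in ascending water). Of the 17 regional values, 7 were positive and 10 negative under water, and 11 positive and 6 negative under BAPN. Their medians were -0.03 and 0.11, and the values under water ran from -1.03 to 1.52.

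Of 24 general macrophage and myeloid genes, 1 rose with BAPN in each region, beside 3.44% and 6.18% of all genes, and none fell. It was Mertk, the receptor for Gas6 on phagocytes, which reached 81.3 ± 3.27 CPM in ascending BAPN, against 66.4 ± 1.96 CPM in ascending water (log2 0.29, SE 0.05, edgeR adjusted p = 0.000181). In the descending aorta Mertk had 89.0 ± 4.10 CPM in BAPN and 68.3 ± 4.42 CPM in water (log2 0.38, SE 0.05, adjusted p = 4.23e-06). Neither pair of groups overlapped, and both calls held in all 30 alternative fits. Which cells made the Mertk transcripts was not tested. The median log2 differences of the 24 genes were -0.03 and -0.07. Between the regions 3 of the 24 were lower in descending water and none higher, and 3 were lower and 1 higher in descending BAPN, shares no greater than those of all genes given above. Cx3cr1, the fractalkine receptor, had 4.49 ± 1.09 CPM in descending water and 9.12 ± 0.87 CPM in ascending water (log2 -1.02, adjusted p = 1.3e-05), and the pore-forming protein gene Mpeg1 had 6.71 ± 1.62 CPM in descending water and 17.0 ± 1.24 CPM in ascending water (log2 -1.33, adjusted p = 1.17e-06). Under BAPN they gave -1.27 and -1.16, opposite in sign to Cd163 and F13a1.

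Of 10 tested genes of monocytes and inflammatory macrophages, 0 were called in the ascending aorta under BAPN, beside 6.34% of all genes. In the descending aorta 1 rose, beside 6.18% of all genes. It was Gpnmb, a glycoprotein of lipid-laden phagocytes, with 12.1 ± 2.04 CPM in BAPN and 7.66 ± 1.53 CPM in water (log2 0.66, SE 0.15, edgeR adjusted p = 0.00475; within the lower pseudogene set 0.56 and 0.15). In the ascending aorta 3 of the 10 had an unadjusted p under 0.05, as had 3137 of all 15543 genes. Between the regions 2 were lower in descending water, beside 15.2% of all genes, and 3 in descending BAPN, beside 15.6%. None was higher under either treatment. Spp1, the osteopontin gene, had 0.61 ± 0.23 CPM in descending water and 21.1 ± 4.47 CPM in ascending water (log2 -5.08).

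Csf1 and Il34 encode the ligands of the CSF1 receptor. Of 5 tested genes of the CSF group, 3 were lower in descending water than in ascending water, beside 15.2% of all genes, and none was higher. Under BAPN 0 were called between the regions, beside 29.8% of all genes. There 1 had an unadjusted p under 0.05, as had 5933 of all 15543 genes. Csf1 averaged 106 ± 3.0 CPM in descending water and 117 ± 5.49 CPM in ascending water (log2 -0.15, SE 0.04, edgeR adjusted p = 0.0065), with -0.21 within the higher pseudogene set (adjusted p = 0.051) and -0.13 within the lower (adjusted p = 0.19). Il34 (log2 -0.84) and Csf2ra (log2 -0.40), a chain of the GM-CSF receptor, rested on low levels, and their calls were lost without any 1 of 16 libraries (adjusted p-values 0.051 to 0.12) and any 1 of 6 (0.057 to 0.092). Within the lower pseudogene set they gave -0.73 (adjusted p = 0.25) and -0.26 (adjusted p = 0.35). Under BAPN 0 of the 5 were called in either region by edgeR. An unadjusted p under 0.05 was found for 1 in the ascending and 0 in the descending aorta, beside 3137 and 3630 of all 15543 genes. Of 9 tested ligands and partners of the members, 1 was higher and 2 lower in descending water than in ascending water, beside 12.1% and 15.2% of all genes. The 1 higher was Hp, which encodes the haptoglobin whose complex with haemoglobin CD163 takes up, at 39.5 ± 14.1 CPM in descending water and 16.8 ± 9.01 CPM in ascending water (log2 1.24, SE 0.29, edgeR adjusted p = 0.00181). Has1 and Has2, which make the hyaluronan that LYVE1 binds, were lower in descending water by log2 differences of -1.18 and -1.02, at 1.36 ± 0.29 and 1.57 ± 0.63 CPM in descending water, against 3.12 ± 1.36 and 3.16 ± 0.58 CPM in ascending water. Within single pseudogene sets Has2 was not called in either (adjusted p-values 0.061 and 0.068), nor Has1 in the lower (0.062).

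Under BAPN 1 of the 9 rose and 1 fell in the descending aorta, beside 6.18% and 4.54% of all genes. In the ascending aorta 0 were called, beside 6.34% of all genes. There 3 had an unadjusted p under 0.05, as had 3137 of all 15543 genes. Hp fell to 18.1 ± 7.64 CPM in descending BAPN, against 39.5 ± 14.1 CPM in descending water (log2 -1.13, SE 0.29, edgeR adjusted p = 0.0128; without descending water 2, -0.89 and 0.056). With the pseudogene sets as a term Hp gave -0.55 (adjusted p = 0.24) and within the lower set -0.76 (adjusted p = 0.2). Serping1, the inhibitor of C1, rose to 500.2 ± 37.8 CPM in descending BAPN, against 412 ± 18.7 CPM in descending water (log2 0.28, SE 0.05, edgeR adjusted p = 0.000167).

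Markers of other cells moved with the regions too. Summed over the 6 cardiomyocyte markers, the level was 7.34 to 11.4 CPM in descending BAPN and 580 to 998 CPM in ascending BAPN, and 8.16 to 10.4 CPM in descending water and 330 to 795 CPM in ascending water. All 6 were called lower in the descending aorta under BAPN and under water, beside 15.6% and 15.2% of all genes. Their median log2 differences were -7.29 and -6.66. The summed level of 5 adipocyte markers was 74.9 to 176 CPM in descending water and 17.9 to 66.1 CPM in ascending water. Of the 5, 3 were called higher in descending water, beside 12.1% of all genes. The summed level of 6 adventitial fibroblast markers was 2327 to 2584 CPM in descending water and 3646 to 4020 CPM in ascending water. Of the 6, 4 were called lower in descending water, beside 15.2% of all genes. Under BAPN the fibroblast sums were 2116 to 2603 CPM in descending and 3627 to 4016 CPM in ascending aorta. Their part in the regional values of Cd163, F13a1 and Lyve1 was not tested.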

How the data were processed

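The deposited table gives whole-number read counts for 54532 Ensembl gene IDs in 20 libraries, not normalized; per the submitters' processing notes the authors used fastp, STAR 2.5 and HTSeq 0.6.1 with mm10. Their settings and gene annotation are not given in the sources used here. The library kit named in the labels' protocols does not mark strand, so reads of overlapping genes can mix or go uncounted. Symbols, positions and exon lengths are from the GENCODE mouse annotation on GRCm38 (54495 IDs matched, 37 did not); promoters are RefSeq's on GRCm38.p6. All count columns were mapped to samples, and no libraries were duplicates.

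Groups were read from the labels, and A and D were taken as ascending and descending from the study's design text. Genes were kept by filterByExpr (minimum count 10, minimum total 15), scaled with TMM factors (trimmed mean of M values) and fitted in 1 quasi-likelihood model with a coefficient per group (edgeR 4.0.16, R 4.3.3, 16 residual degrees of freedom). P-values were adjusted by Benjamini-Hochberg over the 15543 genes tested and called under 0.05. Levels are CPM on the scaled totals, with SDs over 5 libraries. The members, the 19 gene lists, the batch division and the tests were chosen with earlier results of these data known. All members are named; of other lists, up to 4 genes with the smallest p in a comparison. Likeness was searched among genes averaging 1 CPM or more, naming the 8 nearest.

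Alternatives were 2 other scalings, 2 other filters, DESeq2 1.42.0, limma-voom (limma 3.58.1), the compared groups alone, replicate blocks, batch as a term or 1 batch alone, and leaving out each library. Replicate numbers were checked for pairing by correlating same-numbered libraries' deviations from their group means. All 5 correlations between ascending BAPN and descending BAPN were over 0.1 (0.11 to 0.174), and each library matched its own number best. Between ascending and descending water 2 of 5 were over 0.1, and between the treatments 1 of 5 in each region. Between the treatments they reached 0.109 in the ascending and 0.17 in the descending aorta, so the size of a value alone does not establish a pairing. Best matches to the own number were 2 of 5 in water, and 2 and 3 of 5 between the treatments in ascending and descending aorta. A pairing of the BAPN libraries by number is thus possible, but the labels do not state it, and the main test took all libraries as unpaired. The pipeline was tested on simulated data. The 95% intervals of log2 differences come from the fitted standard errors and so include the spread between libraries; the limit for a count of 0 covers counting error only. Figures were drawn with matplotlib 3.10.9.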

Additional observations from a re-analysis of the deposited data

Results flagged for a closer look

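Among 40 sets of 5 libraries (10 genes in 4 groups), a library stood apart from the other 4 of its group by Dixon's criterion in 2, and chance gives about 1 in 20. Adgre1, the F4/80 gene, had 21.19 CPM in descending water library 1, where the next library had 16.94 and the lowest 15.21 CPM. Cd68 had 6.146 CPM in ascending water library 4, where the next library had 7.76 and the highest 8.413 CPM. Neither gene was called in any comparison.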

How the results depend on the processing

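Each value was recomputed under other scalings, filters, tools, blocks and batches, and without each library in turn. For the BAPN effect averaged over the regions, Lyve1 was called in all 28 alternatives, and for the region averaged over the treatments, Cd163 and F13a1 were called in all 29; Lyve1 and Folr2 were called in 28 and Mrc1 in 11 of those 29. The pseudogene sets moved most values. With batch as a term, BAPN over water in the ascending aorta gave 0 members and 542 genes called, -0.10 for Adgre1, -0.03 for F13a1 and -0.08 for Timd4; in the descending aorta it gave 1 member (Lyve1), 0.06 for Adgre1 and 0.04 for Timd4. With that term, descending over ascending under BAPN called 2755 genes and gave 0.22 for Adgre1, 0.09 for Lyve1 and 0.11 for Timd4; under water Timd4 was -0.02, and the difference of BAPN effects of Lyve1 was 0.33 (adjusted p = 0.85). Within the higher set alone, BAPN over water in the ascending aorta called 0 members and 483 genes and gave -0.15 for Adgre1, -0.03 for Cd163, -0.11 for F13a1, -0.04 for Mrc1 and -0.17 for Timd4. Under water, descending over ascending in that set called 1 member, Lyve1, and 2537 genes, and gave -0.03 for Adgre1, -0.06 for C1qa, -0.04 for Csf1r and -0.17 for Timd4; within the lower set it called 2601 genes and gave -0.07 for Cd68, and BAPN over water in the descending aorta called 1 member and 430 genes. These fits hold fewer libraries, and the cause of the turns was not tested.

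Other settings moved less. Without a filter on low counts 1 member, Lyve1, was called in the descending aorta under BAPN and 2, Lyve1 and Cd163, in the average of the regions. With the compared groups alone 1 member was called between the regions under water, F13a1 being lost at an adjusted p of 0.052. Csf1r in the descending aorta was -0.01 with upper-quartile scaling, and Timd4 between the regions under water was -0.02 with limma-voom. The difference of effects called 41 genes without a filter, 14 with DESeq2 and 20 with the replicate block within treatment. With the replicate block Timd4 between the regions under water was 0.00, and with the replicate block within treatment -0.01. Between the regions under BAPN, Lyve1 was called in 9 of 10 fits of all libraries (adjusted p-values 0.023 to 0.049), the replicate block within treatment (-0.25, adjusted p = 0.028) among them, and F13a1 in 6 of 10. That block also called Mrc1 under water (0.18, adjusted p = 0.035), and it ended no call of a member. The labels state no pairing by number in either treatment.

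Leaving out 1 library gave 0 to 2 members called for BAPN in the ascending aorta, 0 to 1 in the descending aorta and 1 to 2 in their average, and between the regions 1 to 3 under BAPN, 1 to 2 under water and 3 to 6 in the average. The difference of effects called 0 to 16 genes. Small values changed sign in these fits: in the ascending aorta under BAPN Adgre1 ran from -0.01 to 0.14, Cd68 from -0.01 to 0.10, Csf1r from -0.09 to 0.04 and Timd4 from -0.02 to 0.09; in the descending aorta C1qa ran from -0.15 to 0.04, Csf1r from -0.04 to 0.05 and Timd4 from -0.24 to 0.06; between the regions Adgre1 ran from -0.11 to 0.01 under BAPN and Timd4 from -0.12 to 0.16 under water; and the difference of effects of Lyve1 ran from -0.13 to 0.01. Timd4 and Folr2, with 29 to 97 counts per library, are the members whose precision depth limits most.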

Other observations

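The 7 genes of antigen presentation by MHC class II, which resident macrophages of the Lyve1 type carry little of and other macrophages and dendritic cells carry much of, were not called under BAPN in either region. Their log2 differences, BAPN over water, were all negative in the ascending aorta (median -0.06) and all positive in the descending aorta (median 0.32). The summed level was 128, 486, 89.5, 87.5 and 77.6 CPM in descending BAPN libraries 1 to 5, against 128, 174, 87.0, 147 and 111 CPM in descending water libraries 1 to 5. Descending BAPN library 2 alone stood above all the others of both groups, and it was also the highest of its group for the summed level of the 10 macrophage genes, at 430 CPM. Between the regions under BAPN, 1 of the 7 was called higher in descending aorta and 0 lower, beside 14.2% and 15.6% of all genes. There 3 values were positive and 4 negative. Under water 0 were called higher and 1 lower, beside 12.1% and 15.2%, with 1 value positive and 6 negative. The 1 lower was H2-Eb1, a chain of the class II molecule, with 18.2 ± 5.94 CPM in descending water and 37.3 ± 4.89 CPM in ascending water (log2 -1.03, SE 0.35, edgeR adjusted p = 0.0264), opposite in sign to Cd163 and F13a1. That call was lost without ascending water 4 or descending water 3 or 5, at adjusted p-values of 0.059 to 0.071.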
